A study of Mus musculus with 12 samples.

Results

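Transcripts of the proteasome subunits were followed in mouse embryonic fibroblasts that had been left in control medium or exposed to a flavone. Members were the genes of the deposited expression table whose names begin with Psma, Psmb, Psmc or Psmd followed by a number, without Psmb8, Psmb9 and Psmb10, and whose mean normalized count over the 12 libraries was at least 10. Of 39 names that matched, 3 were the immunoproteasome subunits left out by name. Psmb11, the thymus form of a catalytic subunit, fell under the minimum with a mean of 0.27, and Psma8, a testis form of an alpha subunit, lay just above it with a mean of 13.99. The remaining set held 35 genes of 24458 in the table and of 12198 that passed the same minimum and were tested. It comprised 8 alpha and 7 beta subunits of the 20S core, 6 ATPases and 3 further subunits of the base of the 19S cap, 8 lid subunits and 3 assembly chaperones that carry Psmd names.

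The series held 4 untreated samples, 4 samples treated with apigenin at 50 µM and 4 treated with chrysin at 50 µM, with a time of 24 h in the labels of all 12. Apigenin and chrysin are plant flavones, and their structures differ by a hydroxyl group, which apigenin has on its B ring and chrysin does not. Cells of all groups were primary embryonic fibroblasts, connective tissue cells grown in flasks for a limited number of passages. Strain, genotype and any solvent in the control medium are not stated in the sources used here. The labels do not say if the 4 samples of each group were separate cultures. The p-values therefore measure the spread among these samples, and that spread may be technical.

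The 26S proteasome degrades proteins that carry ubiquitin chains. Its 20S core is a barrel of stacked rings: the outer alpha rings gate the entrance and the inner beta rings hold the active sites. The 19S cap binds ubiquitin, removes it and feeds the substrate in, with a ring of ATPases (Psmc genes) in its base and a lid that carries the deubiquitinase Psmd14. In mammalian cells the subunit genes can be raised together by the transcription factor Nrf1, encoded by Nfe2l1, when proteasome activity is short, and the related factor Nrf2, encoded by Nfe2l2, raises some of them under oxidative or electrophilic stress.

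The deposited values are log2 of normalized counts to which 1 was added. Depth recovered from them ranged from 4298640 to 15512633 reads per library, and 3 of the 4 chrysin libraries held 4298640 to 5679354 reads against 12957316 in replicate 1. All 10 fibroblast markers (Col1a1, Col1a2 and Vim among them) were detected in every group. Their summed normalized counts were 2.282e+05 to 2.454e+05 in untreated, 1.586e+05 to 1.808e+05 in apigenin and 1.889e+05 to 2.442e+05 in chrysin libraries, with 8 called lower and 1 higher with apigenin and 7 lower and 1 higher with chrysin, as against untreated. The shares of all tested genes called lower and higher were 23.2% and 23.0% with apigenin and 26.7% and 26.3% with chrysin. The summed counts of 6 leukocyte markers were 365.8 to 456.8 in untreated, 899.2 to 1099 in apigenin and 378.8 to 477 in chrysin libraries. Most of each sum came from Cd68, at 8.09 to 8.40 (log2) in untreated and 9.59 to 9.86 in apigenin libraries. Of these 6, 2 were called higher with apigenin than in untreated cells (Cd68 by 1.46 and Cd14 by 2.05 on the log2 scale) and 0 lower, and with chrysin 0 were higher and 1 lower. The same shares of all tested genes stand beside these counts. Between the flavones 3 were higher with apigenin (Cd68, Cd14 and Ptprc, the defining leukocyte gene) and 0 lower, beside 24.7% and 26.1% of all tested genes. Ptprc had 2 to 36 reads per library. Against untreated, the uncalled Csf1r and Itgam had lower means with apigenin (4.62 and 4.37 against 5.02 and 4.74). The uncalled Ptprc and Adgre1 had higher ones (4.60 and 3.49 against 4.30 and 3.15). Sums of 5 smooth muscle and pericyte markers were 1705 to 1902 in untreated, 680.5 to 1014 in apigenin and 2156 to 2730 in chrysin libraries. Sums of 4 endothelial markers were 72.03 to 85.44, 13.41 to 23.18 and 15.34 to 46.87 in the same order, with Cdh5 at 0 in apigenin, and 4 epithelial markers summed to at most 17.09, with Krt8 at 0 in untreated and chrysin libraries and Cdh1 at 0 in apigenin libraries. The part of these markers in the results below was not tested, and in bulk RNA fewer cells of a type cannot be told apart from less RNA per cell.

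The apigenin libraries stood apart in pairs, replicates 1 and 3 against replicates 2 and 4, a division known from earlier results of these data. Among the 35 members, 25 had both values of the first pair on one side of both values of the second, with 9 higher and 16 lower in replicates 2 and 4. That share, 71.4%, was close to the 68.7% of all tested genes. Psmd9 showed it most plainly among the subunit genes with more than 100 normalized counts on average, at 7.36 and 7.82 in replicates 1 and 3 against 8.50 and 8.25 in replicates 2 and 4. Calls that ended with a pair alone are named with the results.

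Per kilobase of the longest coding transcript, Psmd8 was the most abundant member, at 2050 normalized counts per kilobase in untreated cells, ahead of Psma4 at 1250 and Psmb1 at 1210. Apart from Psma8 at 8.1, the lowest levels per kilobase in untreated cells were those of Psmd9 at 71.2 and Psmb5 at 84.7. Psmb5 encodes the subunit with chymotrypsin-like activity, while the other catalytic subunits stood at 865 (Psmb6, caspase-like) and 680 (Psmb7, trypsin-like) on the same scale. Near-identical copies elsewhere in the mm9 genome, with at least 95% identity over at least 50% of the transcript, were found for Psmb5 (95.8%, chromosome 7) and Psma5 (96.1%, chromosome 10), so the counts of both are uncertain. Exons of 8 members overlapped another annotated gene (Psma4, Psma5, Psmb5, Psmb7, Psmc3, Psmd1, Psmd3 and Psmd13), and how the counting treated strand is not stated in the sources used here. Psma8 had between 3 and 37 reads per library and was not called in any comparison.

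Because Nrf1 and Nrf2 act through antioxidant response elements, the promoters of the members were searched for their core, TGACNNNGC, on both strands of the 250 bases before the transcription start. The set of RefSeq promoter windows used (GRCm38.p6) covered 28 of the 35 members. It held none for Psma8, Psmb1, Psmb2, Psmb7, Psmc3, Psmd3 and Psmd7. Of the 28 members with a window, 5 (17.9%) held the core, against 14.0% of 9358 tested genes with a window and 11.5% of all 27025 genes with a window. The matching windows are shown with the core in capitals, each on the strand of its gene.
Psmb5 (chr14:54617998-54618078, minus strand): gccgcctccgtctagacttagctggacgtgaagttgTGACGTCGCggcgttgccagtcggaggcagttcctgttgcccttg
Psmb6 (chr11:70525312-70525356, plus strand): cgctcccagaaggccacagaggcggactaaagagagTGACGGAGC
Psmc6 (chr14:45329574-45329641, plus strand): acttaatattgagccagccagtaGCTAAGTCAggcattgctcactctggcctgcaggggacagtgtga
Psmd12 (chr11:107479278-107479325, plus strand): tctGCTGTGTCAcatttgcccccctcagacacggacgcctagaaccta
Psmd9 (chr5:123228123-123228189, plus strand): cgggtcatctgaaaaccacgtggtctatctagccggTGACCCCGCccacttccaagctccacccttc
In Psmb6, Psmd9 and Psmb5 the first base of the core lay 9, 31 and 47 bases before the start, and in Psmc6 and Psmd12 it lay 227 and 247 bases before it on the opposite strand.

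A core for ETS family factors, CCGGAAG on either strand, was noticed after the windows had been read. Only this exact string was searched, so members without it may hold other forms of the site. It was present in the 250 bases of 9 of the 28 members (32.1%), against 15.9% of tested genes and 7.83% of all genes with a window. The 9 were distributed as 3 of 5 ATPases, 2 of 3 further base subunits, 3 of 6 lid subunits, 1 of 7 alpha subunits and 0 of 4 beta subunits with a window. The 100 bases before the start are shown (GRCm38.p6, strand of the gene, ETS core in capitals) for 5 members with the core there and for 3 without it whose values the results turn on, all chosen after their values were seen.
Psmc1 (chr12:100110102-100110201, plus strand): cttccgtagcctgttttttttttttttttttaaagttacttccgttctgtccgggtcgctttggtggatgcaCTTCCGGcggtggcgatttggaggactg
Psmd2 (chr16:20651552-20651651, plus strand): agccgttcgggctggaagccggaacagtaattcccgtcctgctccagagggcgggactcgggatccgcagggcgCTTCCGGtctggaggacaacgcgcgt
Psmd6 (chr14:14120946-14121045, minus strand): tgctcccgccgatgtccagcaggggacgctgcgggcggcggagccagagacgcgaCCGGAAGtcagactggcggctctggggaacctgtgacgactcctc
Psmd11 (chr11:80428515-80428614, plus strand): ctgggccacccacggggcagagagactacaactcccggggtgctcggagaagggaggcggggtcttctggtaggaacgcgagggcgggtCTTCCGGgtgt
Psmd12 (chr11:107479428-107479527, plus strand): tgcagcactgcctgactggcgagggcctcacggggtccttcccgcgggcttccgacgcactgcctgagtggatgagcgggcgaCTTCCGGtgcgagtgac
Psmd14 (chr2:61711594-61711693, plus strand): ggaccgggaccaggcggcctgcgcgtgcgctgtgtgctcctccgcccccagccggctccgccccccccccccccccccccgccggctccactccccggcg
Psmd8 (chr7:29180674-29180773, minus strand): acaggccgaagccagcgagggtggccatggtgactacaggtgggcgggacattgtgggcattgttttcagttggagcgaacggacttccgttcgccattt
Psmb4 (chr3:94886959-94887058, minus strand): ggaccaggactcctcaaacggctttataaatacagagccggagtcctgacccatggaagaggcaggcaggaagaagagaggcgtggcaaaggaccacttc
Another motif, CCAAT, was held by 11 of the 28 members (39.3%) and by 40.7% of tested genes with a window. These matches describe the letters in the windows and say nothing of binding.

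With chrysin, most subunits of the 19S cap were called higher, and no beta subunit was. Of the 35 members, 16 were called higher and 1 was called lower than in untreated cells at an adjusted p under 0.05, beside 26.3% and 26.7% of all tested genes called higher and lower. The median log2 difference of the members was 0.27, against -0.02 for all tested genes. The called rises were small, from 0.27 to 0.53 on the log2 scale. Among the 17 subunits of base and lid 12 were called higher and 0 lower, among the 8 alpha subunits 4 were higher and 0 lower, and among the 7 beta subunits 0 were higher and 1 was lower. With quantile normalization 7 of the 17 base and lid subunits and 3 of the 8 alpha subunits were called higher, and with scaling to library totals 9 and 3 were, with 0 beta subunits higher under either. Of all tested genes, 25.5% and 22.7% were called higher under these settings, in the same order. Of the 16 members called higher, 10 stayed called under all 25 alternatives run for this comparison (Psma1, Psma6, Psma7, Psmc1, Psmc2, Psmc6, Psmd8, Psmd12, Psmd13 and Psmd14).

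**Figure D1:**
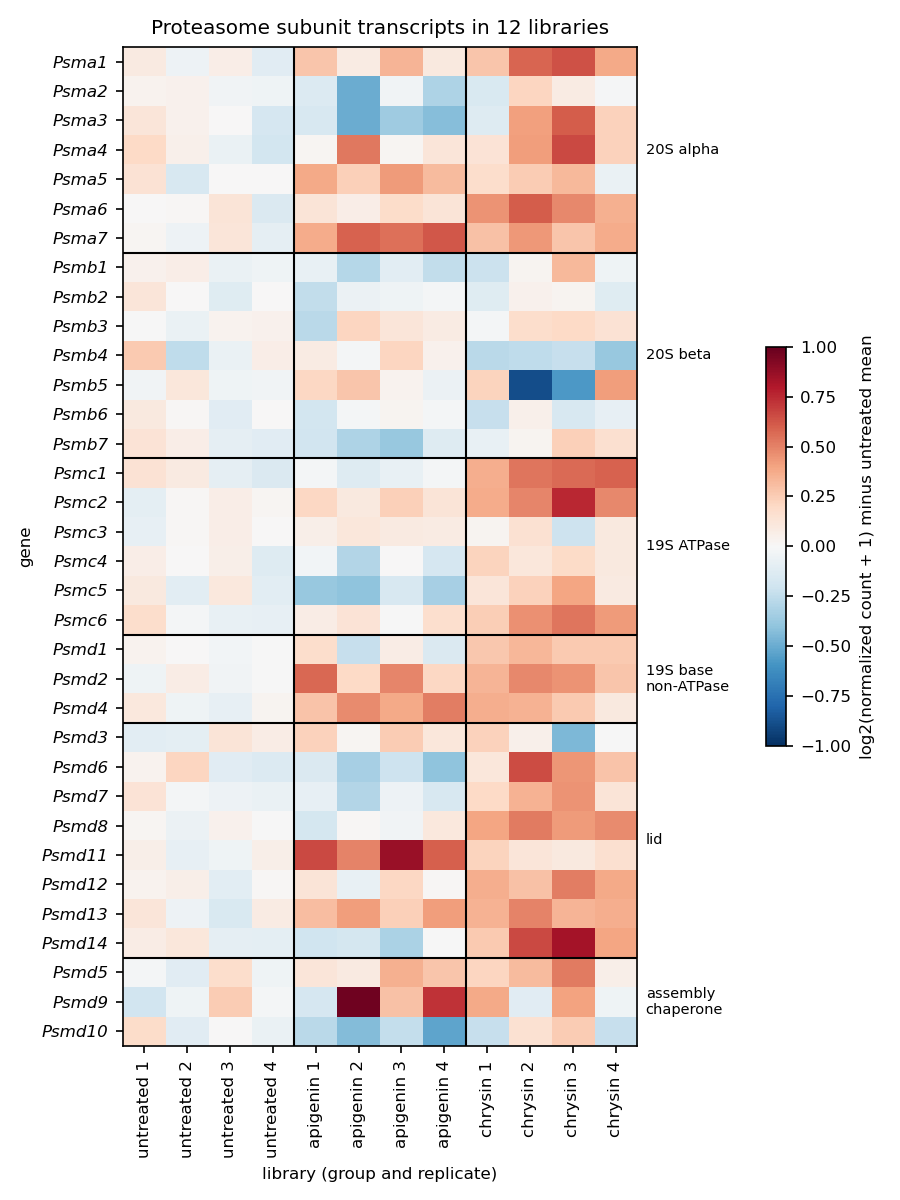
Level of 34 members (all but Psma8) in each of the 12 libraries, as log2(normalized count + 1) minus the mean of the 4 untreated libraries, with red for higher and blue for lower values and genes ordered by part of the complex. Psmc1, Psmd8 and Psmd14 are higher in all 4 chrysin libraries than in any untreated library, and Psmd11 stands out in the 4 apigenin libraries.

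In the ATPase ring, Psmc1 stood at 10.82, 10.77, 10.59 and 10.53 in the untreated libraries, at 10.66, 10.55, 10.60 and 10.66 with apigenin and at 11.04, 11.21, 11.24 and 11.27 with chrysin. The chrysin values lay above all others and the apigenin values lay within the untreated range. Psmc1 is annotated at chr12:101348396-101361574 on the plus strand of mm9. The chrysin difference from untreated was 0.51 ± 0.09 (log2, SE; adjusted p = 0.000105). Psmc2 had values of 9.79, 9.90, 9.96 and 9.91 untreated and 10.26, 10.38, 10.64 and 10.37 with chrysin, a log2 difference of 0.52 ± 0.09 (adjusted p = 0.000135), with apigenin between at 9.99 to 10.13. Psmc6 had a log2 difference of 0.42 (adjusted p = 0.000692). The other ATPases were not called: Psmc3, Psmc4 and Psmc5 differed from untreated by 0.02, 0.15 and 0.21 on the log2 scale, with 95% intervals of -0.16 to 0.20, -0.04 to 0.35 and 0.01 to 0.42. For Psmc4, the 4 chrysin values of 9.72, 9.61, 9.69 and 9.60 nevertheless lay above the untreated values of 9.57, 9.50, 9.56 and 9.37.

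Among the further base subunits, Psmd1 and Psmd2 are the large scaffolds of the cap and Psmd4 is a ubiquitin receptor. Psmd2 rose with chrysin from 11.08, 11.20, 11.09 and 11.12 in untreated to 11.46, 11.60, 11.57 and 11.40 (0.38 ± 0.09, log2; adjusted p = 0.00211). Psmd1 rose from 10.94, 10.91, 10.88 and 10.90 to 11.18, 11.24, 11.17 and 11.17 (0.28, adjusted p = 0.0124). These chrysin values did not overlap the untreated ones for either gene. Psmd4 had chrysin values of 10.18, 10.16, 10.08 and 9.91 against 9.92, 9.77, 9.73 and 9.84 untreated, where the groups overlapped, and a log2 difference of 0.27 (adjusted p = 0.0188). The 3 genes kept their sign but lost the call with quantile normalization, as did Psma4, Psmd6 and Psmd7. The call of Psmd4 also ended without untreated replicate 2 or 3 or chrysin replicate 2, with adjusted p up to 0.0631 over the libraries left out in turn.

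In the lid, Psmd14, the deubiquitinase that removes ubiquitin from substrates, stood at 9.96, 10.00, 9.80 and 9.79 in untreated and at 10.15, 10.55, 10.72 and 10.28 in chrysin libraries. With apigenin it stood at 9.69, 9.71, 9.57 and 9.88, so each chrysin value was above every value of both other groups. The chrysin difference from untreated was 0.53 ± 0.12 (log2, SE; adjusted p = 0.00105). Psmd14 lies at chr2:61549751-61638433 on the plus strand of mm9. Psmd8, a lid subunit that joins last in yeast lid assembly, had values of 11.62, 11.54, 11.64 and 11.59 untreated and 11.99, 12.12, 12.02 and 12.07 with chrysin. Its log2 difference was 0.45 ± 0.08 (adjusted p = 9.67e-05), with no overlap. Psmd12 rose from 9.63, 9.65, 9.49 and 9.61 to 9.96, 9.89, 10.11 and 9.97 (0.39, adjusted p = 0.00177), and Psmd13 rose by 0.39 (adjusted p = 0.00196). Psmd6 and Psmd7 were called with log2 differences of 0.37 and 0.28, although for both the lowest chrysin library lay within the untreated range. The call of Psmd6 ended without untreated replicate 3 or 4 or chrysin replicate 2, with adjusted p up to 0.0696. Psmd3 and Psmd11 were not called, with 95% intervals of -0.30 to 0.22 and -0.04 to 0.34.

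In the alpha rings, Psma6 and Psma1 each had a chrysin difference of 0.47 on the log2 scale (adjusted p = 0.000186 and 0.0013). Psma6 stood at 10.25, 10.26, 10.38 and 10.10 in untreated and at 10.70, 10.85, 10.73 and 10.60 in chrysin libraries, which did not overlap. Psma7 differed by 0.34 (adjusted p = 0.00518). Psma4 differed by 0.36 (adjusted p = 0.025) with overlapping groups, and its call ended without untreated replicate 3 or 4 or chrysin replicate 2 or 3, with adjusted p up to 0.0935. Psma2, Psma3, Psma5 and Psma8 were not called. Psma3 was called higher in 3 of 25 alternatives. These were a weight per library (0.29, adjusted p = 0.0191), the 8 compared samples alone (0.28, adjusted p = 0.0454) and the omission of chrysin replicate 1 (0.42, adjusted p = 0.00486).

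The beta rings gave a different set of values. Psmb4, a non-catalytic beta subunit at chr3:94688015-94690883 on the minus strand of mm9, had 9.02, 8.50, 8.69 and 8.82 in untreated and 8.49, 8.50, 8.53 and 8.38 in chrysin libraries, which overlapped. Its log2 difference of -0.29 ± 0.12 (adjusted p = 0.045) was the sole call in these rings, and it ended in 13 of 25 alternatives. Among these were the omission of untreated replicate 1, 3 or 4, of apigenin replicate 4 or of any of the 4 chrysin replicates (adjusted p up to 0.156). Of the catalytic subunits, Psmb5 had 6.19, 6.34, 6.18 and 6.19 untreated and 6.45, 5.34, 5.65 and 6.64 with chrysin, the widest spread of a group among the members but Psma8, with a 95% interval of -0.74 to 0.33 for the difference. Psmb6 had 9.53, 9.44, 9.32 and 9.43 against 9.20, 9.48, 9.27 and 9.35, with an interval of -0.30 to 0.10. Psmb7 had 9.76, 9.69, 9.53 and 9.51 against 9.55, 9.65, 9.86 and 9.78, with an interval of -0.13 to 0.30. None of the 3 catalytic subunits was called with chrysin.

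**Figure D2:**
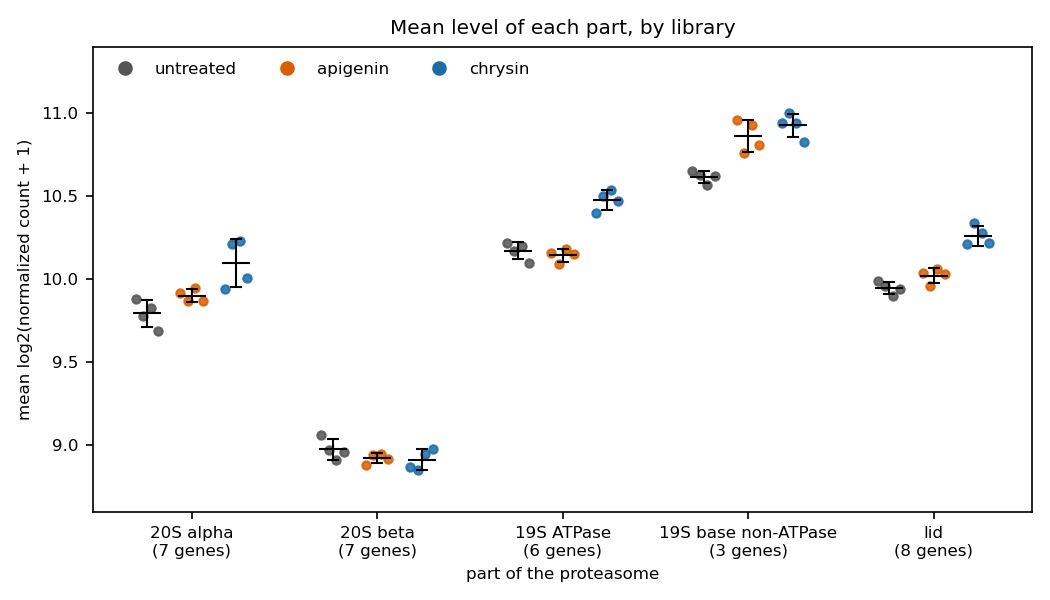
Mean log2(normalized count + 1) over the genes of each part of the proteasome, 1 point per library, with a bar and whiskers for mean and SD of 4 libraries and Psma8 left out of the alpha subunits. The ATPase means run from 10.40 to 10.54 with chrysin against 10.10 to 10.22 untreated and 10.09 to 10.18 with apigenin, while the 3 groups of the beta subunits overlap between 8.85 and 9.06.

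The mean over the genes of each part was also taken in every library, as a description. The mean log2 level of the 6 ATPases was 10.17 ± 0.05 (SD, n = 4) in untreated, 10.14 ± 0.04 in apigenin and 10.48 ± 0.06 in chrysin libraries. For the 8 lid subunits it was 9.95 ± 0.04, 10.02 ± 0.04 and 10.26 ± 0.06, and for the 3 further base subunits 10.62 ± 0.03, 10.86 ± 0.10 and 10.93 ± 0.07, in the same order. The 7 alpha subunits without Psma8 averaged 9.80 ± 0.08, 9.90 ± 0.04 and 10.10 ± 0.14. The 7 beta subunits averaged 8.98 ± 0.06, 8.92 ± 0.03 and 8.91 ± 0.06. The 34 members without Psma8 together took 0.397% to 0.422% of the normalized counts of an untreated library, 0.457% to 0.481% with apigenin and 0.446% to 0.50% with chrysin. Both flavones' shares lay above all untreated shares. A library's normalized counts summed to 8196146 to 8329332 in untreated, 7470554 to 7677858 in apigenin and 8396027 to 8945790 in chrysin samples.

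With apigenin, a few subunits moved in each direction and most were not called. Of the 35 members 6 were called higher and 4 lower than untreated, beside 23.0% of all tested genes called higher and 23.2% lower. The median log2 difference of the members was 0.08, against 0.01 for all tested genes. Psma7, Psmd4 and Psmd11 stayed called higher under all 27 alternatives, and 0 of the 4 lower calls did. With scaling to library totals, which moved the median of all tested genes to 0.14, 13 members were called higher and 0 lower. Under that scaling 31.5% of all tested genes were called higher and 18.0% lower.

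The largest apigenin difference was that of Psmd11, a lid subunit that clamps lid and core together, at chr11:80242117-80286750 on the plus strand of mm9. Its values were 9.85, 9.71, 9.75 and 9.85 untreated, 10.45, 10.29, 10.65 and 10.39 with apigenin and 10.01, 9.91, 9.89 and 9.95 with chrysin. All apigenin values lay above all others. The log2 difference from untreated was 0.66 ± 0.09 (adjusted p = 1.61e-05). Psma7, an alpha subunit at chr2:179771078-179777138 on the minus strand of mm9, had 9.15, 9.08, 9.25 and 9.04 untreated, 9.50, 9.72, 9.68 and 9.75 with apigenin and 9.42, 9.56, 9.41 and 9.50 with chrysin. It rose by 0.53 ± 0.09 with apigenin (adjusted p = 0.000181), and neither flavone's values overlapped the untreated ones. Psmd4 had apigenin values of 10.10, 10.29, 10.19 and 10.33, above all untreated values, and a difference of 0.41 ± 0.09 (adjusted p = 0.00134).

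Psmd2 stood at 11.70, 11.32, 11.61 and 11.33 with apigenin, above every untreated value, with a log2 difference of 0.37 (adjusted p = 0.0035) that was 0.20 with replicates 2 and 4 alone (adjusted p = 0.0528). Psmd13 rose by 0.35 (adjusted p = 0.0055), and by 0.27 with replicates 1 and 3 alone (adjusted p = 0.0526). Psma5 rose by 0.34 (adjusted p = 0.0135), with adjusted p = 0.0559 for replicates 2 and 4 alone and 0.0544 without untreated replicate 2. Psmd1, the partner scaffold of Psmd2, was at 11.08, 10.68, 10.98 and 10.76 with apigenin, and its interval of the difference was -0.22 to 0.15.

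The 4 members called lower with apigenin came from different parts. The alpha subunit Psma3 had 10.60, 10.52, 10.48 and 10.31 untreated and 10.32, 9.98, 10.12 and 10.05 with apigenin, which overlapped, and a log2 difference of -0.36 ± 0.13 (adjusted p = 0.0286). The ATPase Psmc5 had 9.99, 9.79, 10.00 and 9.79 against 9.51, 9.49, 9.73 and 9.56, without overlap, and a difference of -0.32 ± 0.10 (adjusted p = 0.013). The catalytic Psmb7 had apigenin values of 9.43, 9.31, 9.24 and 9.49, below all untreated values, and a difference of -0.26 (adjusted p = 0.0468). Psmd10, an assembly chaperone of the ATPase ring also known as gankyrin, had 8.20, 7.91, 8.02 and 7.95 against 7.75, 7.59, 7.78 and 7.49 (-0.37, adjusted p = 0.0414). All 4 calls ended with replicates 1 and 3 of apigenin alone, where the differences were -0.26, -0.27, -0.29 and -0.26 in that order, and that of Psmb7 also ended with replicates 2 and 4 alone (-0.22, adjusted p = 0.103). The call of Psma3 also ended without untreated replicate 1, 2 or 3 or apigenin replicate 2 or 4 (adjusted p up to 0.0836). That of Psmb7 ended without untreated replicate 1, 2 or 3, apigenin replicate 2 or 3 or chrysin replicate 2 or 4 (adjusted p up to 0.13). That of Psmd10 ended without any of the untreated replicates or without apigenin replicate 2 or 4 (adjusted p up to 0.115).

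Among the 25 members not called with apigenin, several still stood off the untreated libraries. Psmd9, an assembly chaperone of the base, had 7.34, 7.49, 7.78 and 7.51 untreated and 7.36, 8.50, 7.82 and 8.25 with apigenin, which overlapped. Its log2 difference was 0.45 (95% interval 0.01 to 0.89; adjusted p = 0.0867), and it was called without apigenin replicate 1 (0.66, adjusted p = 0.00691) and with replicates 2 and 4 alone (0.84, adjusted p = 0.000396). Psmd6 and Psmb1 lay below all untreated values, with log2 differences of -0.28 and -0.18, and Psmc2 lay above them, with 0.17. Psma2 overlapped the untreated range and had a log2 difference of -0.24 (95% interval -0.47 to -0.02). Psmb5 was at 6.43, 6.50, 6.26 and 6.17, Psmb6 at 9.25, 9.41, 9.46 and 9.41, and Psmc4 at 9.47, 9.21, 9.50 and 9.33. Each of these 3 overlapped the untreated range, and the 95% intervals of the differences were -0.42 to 0.66, -0.25 to 0.15 and -0.32 to 0.07. Psmd12, at 9.72, 9.52, 9.80 and 9.61, had an interval of -0.12 to 0.26.

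**Figure D3:**
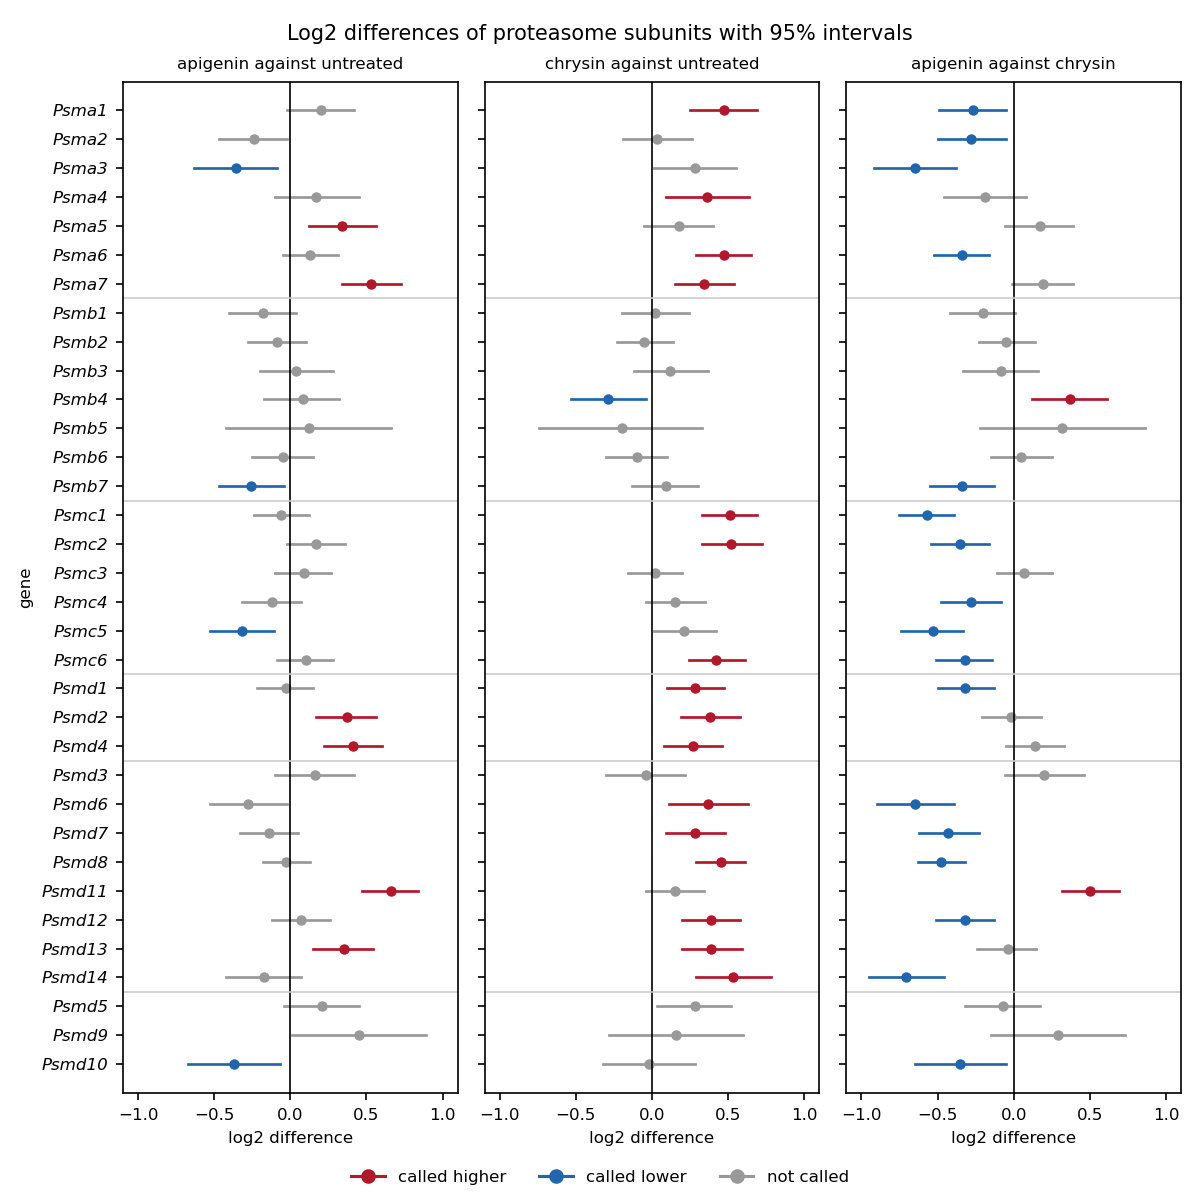
Log2 difference of 34 members (all but Psma8) in each of the 3 comparisons, with 95% intervals as lines and colours for genes called at an adjusted p under 0.05. In the apigenin against chrysin panel 17 members lie on the lower and 2 on the higher side of 0 as called, a balance that became 6 and 7 with quantile normalization and 7 and 8 with scaling to library totals. Of all tested genes 26.1% and 24.7% were called lower and higher, and 23.9% and 24.2%, then 17.2% and 36.4%, under those settings.

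The flavones were given at the same dose and time, so their readouts could be compared directly, in 1 pair of compounds with p-values adjusted over all genes tested. Of the 35 members, 2 were called higher and 17 lower with apigenin than with chrysin, beside 24.7% and 26.1% of all tested genes. The median log2 difference of the members was -0.20, against 0.01 for all tested genes. This balance depended on how libraries were put on a common scale. With quantile normalization 7 members were called higher and 6 lower (median -0.04, all tested genes 0.02), beside 24.2% and 23.9% of all tested genes. With scaling to library totals 8 were higher and 7 lower (median 0.01, all tested genes 0.22). That scaling moves all genes of a library alike, so it could not change the gap between these medians. Of all tested genes 36.4% were called higher and 17.2% lower with that scaling. Psmd11, higher with apigenin, and Psma3, Psmc1, Psmc5, Psmd6 and Psmd14, lower with apigenin, kept their calls under all 27 alternatives.

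Among those 6 genes, Psmd14 showed the largest difference between the flavones, -0.71 ± 0.12 on the log2 scale (95% interval -0.95 to -0.46; adjusted p = 9.62e-05). Psma3 followed, with chrysin values of 10.35, 10.89, 11.08 and 10.71, all above its apigenin values given above, and a difference of -0.65 ± 0.13 (adjusted p = 0.000519). Psmd6 had 9.12, 8.93, 9.06 and 8.86 with apigenin and 9.38, 9.92, 9.71 and 9.55 with chrysin, a difference of -0.65 ± 0.12 (adjusted p = 0.000319), while untreated cells lay between at 9.30, 9.48, 9.15 and 9.13. The difference of Psmc1 was -0.57 ± 0.09 (adjusted p = 4.06e-05). Psmc5 had chrysin values of 10.01, 10.12, 10.29 and 9.98 and a difference of -0.53 ± 0.10 (adjusted p = 0.000263). Psmd11 went the other way, with 0.50 ± 0.09 (adjusted p = 0.000183).

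Psmb4 was also higher with apigenin, at 8.84, 8.74, 8.97 and 8.80, by 0.37 ± 0.12 (adjusted p = 0.0144), and its values did not overlap those with chrysin. With apigenin replicates 2 and 4 alone the adjusted p was 0.066. Psmb7 was lower with apigenin by -0.34 (adjusted p = 0.00947), a call that ended with quantile normalization and with scaling to library totals. Psmc4 was lower by -0.28 (adjusted p = 0.0198), and its call ended without apigenin replicate 2 (adjusted p = 0.0747), with quantile normalization (-0.17, adjusted p = 0.171) and with scaling to library totals (-0.07, adjusted p = 0.562). With apigenin replicates 1 and 3 alone the calls of Psma1, Psma2, Psmc4, Psmd1, Psmd10 and Psmd12 ended, at log2 differences of -0.16, -0.12, -0.17, -0.16, -0.24 and -0.22. Psma1, Psma2 and Psmd10 had adjusted p of 0.0428, 0.0409 and 0.0475, and their calls ended in 15, 17 and 15 of 27 alternatives, the omission of apigenin replicate 2 or 4 and of chrysin replicate 2 or 3 among them.

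Members for which no difference between the flavones was called included Psma7, Psmd2, Psmd4 and Psmd13, each called higher than untreated with both flavones in comparisons that share the untreated libraries. The 95% intervals of apigenin minus chrysin were -0.01 to 0.39 for Psma7, -0.21 to 0.18 for Psmd2, -0.05 to 0.33 for Psmd4 and -0.24 to 0.15 for Psmd13. Psma7 was called higher with apigenin than with chrysin under quantile normalization (0.31), scaling to library totals (0.40), limma-voom (0.22), with apigenin replicates 2 and 4 alone (0.26) and without apigenin replicate 1 (0.24, adjusted p = 0.0461). Psmd4 was called higher with apigenin under quantile normalization (0.33) and scaling to library totals (0.35). For Psmd2 quantile normalization gave a called difference of the opposite sign, 0.30. The catalytic Psmb5 and Psmb6 had intervals of -0.22 to 0.86 and -0.15 to 0.25.

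**Figure D4:**
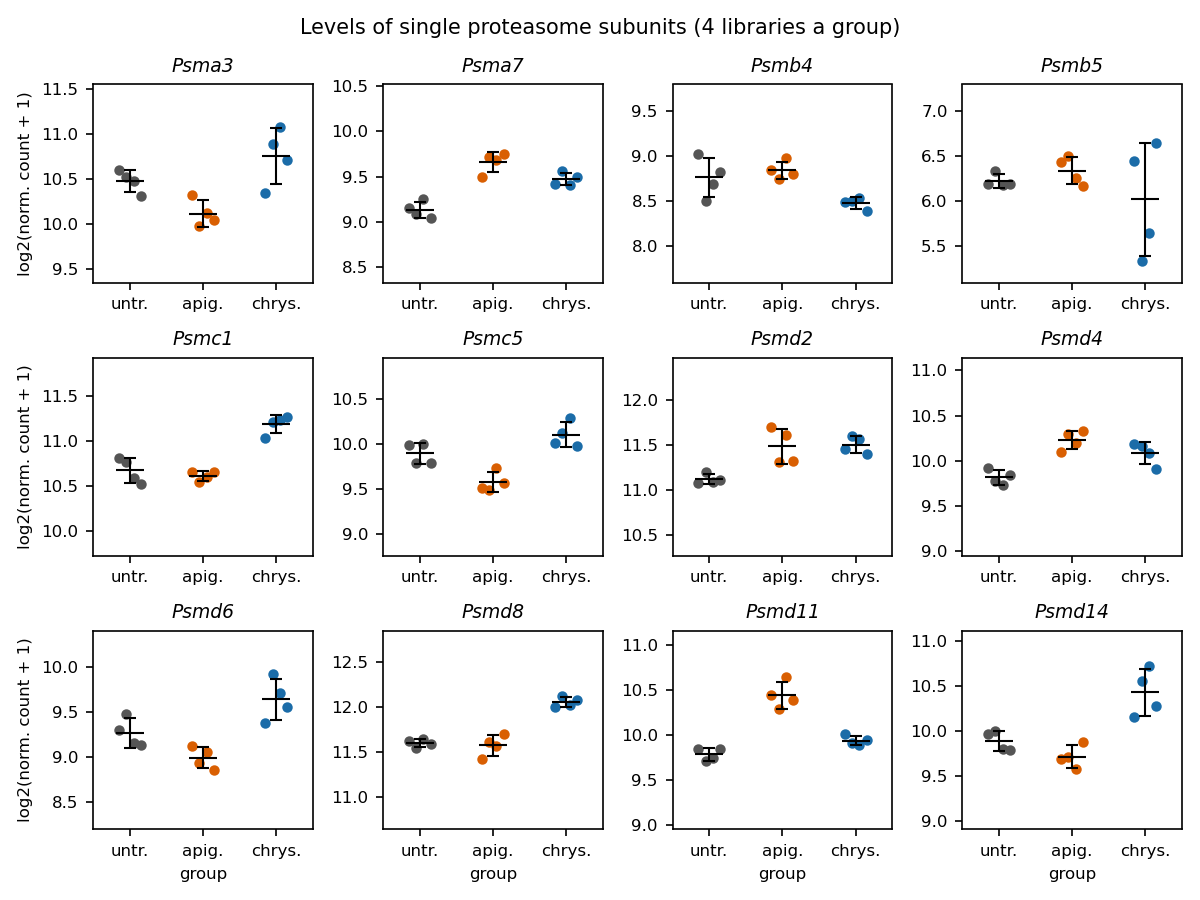
Log2(normalized count + 1) of 12 members in each of the 4 libraries a group (points), with mean and SD (bar and whiskers), every panel spanning the same number of log2 units. Psmd14, Psmc1 and Psmd8 are highest with chrysin, Psmd11 is highest with apigenin, and Psma7 is above untreated with both.

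The promoter matches shown above can be set beside these values as a description. Of the 5 members with an antioxidant response core, 0 were called with apigenin and 2 were called higher with chrysin (Psmc6 and Psmd12), where 26.3% of all tested genes were. Of the 9 members with the ETS core as searched, CCGGAAG, 8 were called higher and 0 lower with chrysin, with a median log2 difference of 0.39. Of the 19 without it, 7 were called higher and 1 lower, with a median of 0.21, Psmd14 and Psmd8 among those higher. With apigenin 3 of the 9 were called higher and 0 lower, and 3 of the 19 higher and 3 lower. Of all tested genes 23.0% were called higher with apigenin and 23.2% lower. The core was noticed after the windows had been read, and its part in these values was not tested.

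A list of 10 genes held regulators of proteasome genes and factors that act on those regulators, activators and repressors among them. Of the 10, 5 were called higher and 1 lower with apigenin, beside 23.0% and 23.2% of all tested genes. With chrysin 6 were higher and 1 lower, beside 26.3% and 26.7%. Nfe2l1, which encodes Nrf1, stood at 11.67, 11.64, 11.67 and 11.70 untreated, 12.05, 12.32, 12.05 and 12.32 with apigenin and 11.59, 11.46, 11.44 and 11.44 with chrysin. It was called higher with apigenin (0.52 ± 0.08, adjusted p = 6.95e-05) and was not called with chrysin (-0.19, adjusted p = 0.0598), and the flavones differed by 0.70 (adjusted p = 2.53e-06). Without chrysin replicate 1 it was called lower with chrysin than in untreated cells (adjusted p = 0.0331). Nfe2l2, which encodes Nrf2, had 10.28, 10.32, 10.29 and 10.23 untreated, 10.83, 10.97, 10.85 and 11.08 with apigenin and 11.39, 11.57, 11.52 and 11.55 with chrysin. It rose by 0.66 with apigenin (adjusted p = 4.92e-06) and by 1.23 with chrysin (adjusted p = 4.32e-09), and the 3 groups did not overlap. Mafg, a small Maf partner of these factors, rose by 1.28 with apigenin and 1.39 with chrysin, and its difference of -0.11 between the flavones was not called. Bach1, a repressor at the same elements, had 8.98, 9.06, 9.04 and 8.92 untreated, 9.11, 8.94, 9.13 and 9.06 with apigenin and 9.84, 9.92, 9.90 and 10.12 with chrysin. It rose by 0.95 with chrysin (adjusted p = 4.77e-07) and was not called with apigenin, and the flavones differed by -0.88.

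Nrf1 is made at the endoplasmic reticulum and needs the protease Ddi2, the deglycosylase Ngly1 and the extractor Vcp to become active. Ddi2 rose by 1.11 with apigenin and 1.35 with chrysin (adjusted p = 0.000465 and 5.92e-05). Ngly1 fell by 0.84 with apigenin on the log2 scale (adjusted p = 0.000451) and had an uncalled difference of -0.35 with chrysin. Vcp was not called with either flavone.

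**Figure D5:**
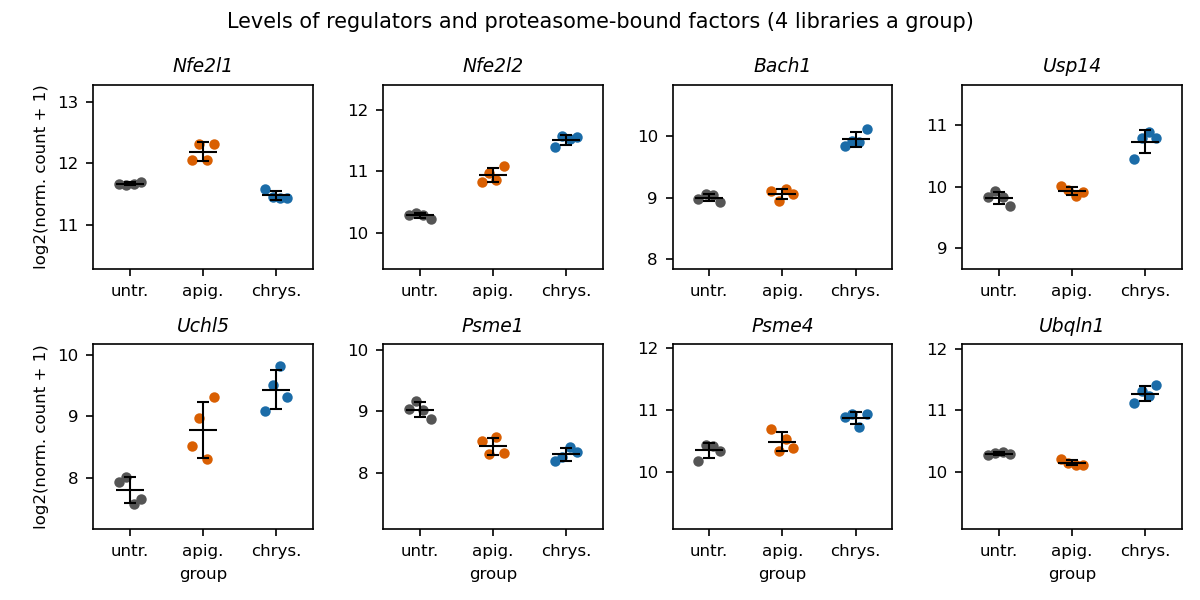
Log2(normalized count + 1) of 8 regulators and proteasome-bound factors in the 4 libraries a group (points), with mean and SD, every panel spanning the same number of log2 units. Nfe2l1 is highest with apigenin, Nfe2l2, Bach1, Usp14 and Ubqln1 are highest with chrysin, and Psme1 is lower than untreated with both.

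A list of 10 genes held factors associated with the proteasome, the cap subunits Shfm1 and Adrm1, whose names fall outside the pattern, among them. Their log2 differences ranged from -0.10 to 1.85 with chrysin and from -0.42 to 1.71 with apigenin. Of these 10 genes, 8 were called higher and 0 lower with chrysin, beside 26.3% and 26.7% of all tested genes. With apigenin 3 were higher and 2 lower, beside 23.0% and 23.2%. Usp14, a deubiquitinase on the cap, had 9.83, 9.93, 9.83 and 9.69 untreated, 10.01, 9.95, 9.86 and 9.92 with apigenin and 10.46, 10.79, 10.89 and 10.79 with chrysin. Its chrysin difference was 0.91 ± 0.10 (adjusted p = 9.83e-07) and the flavones differed by -0.80. Uchl5, another deubiquitinase of the cap, rose by 0.98 with apigenin and 1.64 with chrysin. Txnl1, a thioredoxin-like protein on the cap, rose by 0.72 with chrysin (adjusted p = 1.4e-05) and had a difference of -0.01 with apigenin. Zfand5 and Zfand2a, zinc-finger proteins that bind the proteasome, rose with both flavones, Zfand5 by 0.98 and 0.99 and Zfand2a by 1.71 and 1.85. Zfand2a followed the apigenin pairs, at 9.88 and 9.74 in replicates 1 and 3 and 11.17 and 11.23 in replicates 2 and 4. Shfm1, the small lid subunit whose name falls outside the pattern, was called lower with apigenin (-0.42, adjusted p = 0.0288), a call that ended without untreated replicate 1 or 2 or apigenin replicate 2 or 4 (adjusted p up to 0.0936). It was not called with chrysin, and the flavones differed by -0.57.

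Alternative caps were called in both directions. In a list of 5 activator and inhibitor genes, 1 was called higher and 1 lower with apigenin, beside 23.0% and 23.2% of all tested genes. With chrysin 2 were higher and 2 lower, beside 26.3% and 26.7%. Psme1, a subunit of the 11S activator, had 9.03, 9.17, 9.02 and 8.88 untreated, 8.52, 8.31, 8.58 and 8.32 with apigenin and 8.19, 8.25, 8.42 and 8.33 with chrysin, and fell by 0.59 and 0.73 on the log2 scale (adjusted p = 0.000327 and 3.76e-05). Psme2, also of that activator, averaged 8.03 untreated, 7.98 with apigenin and 7.66 with chrysin. It was called lower with chrysin and was not called with apigenin. Psme3 and Psme4, the nuclear activators, were called higher with chrysin by 0.51 and 0.53 and had uncalled differences of -0.06 and 0.14 with apigenin. Psmf1, an inhibitor of the core, was called higher with apigenin (0.57, adjusted p = 0.00324). Of 5 dedicated assembly factors 0 were called with apigenin and 1 was called higher with chrysin, where 26.3% of all tested genes were. That gene was Psmg2 (0.47, adjusted p = 0.0238), whose call ended without untreated replicate 3 or 4 or chrysin replicate 3 or 4 (adjusted p up to 0.078). Pomp, a chaperone of beta ring assembly, was at 9.50, 9.53, 9.40 and 9.30 untreated, 9.21, 9.29, 9.31 and 9.57 with apigenin and 9.15, 9.90, 9.96 and 9.58 with chrysin, and was not called. Without chrysin replicate 1 it was called higher with chrysin than in untreated cells (adjusted p = 0.0133). It was called lower with apigenin than with chrysin without apigenin replicate 4 or chrysin replicate 1.

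The immunoproteasome subunits, left out of the members, were low. Psmb10 had 5.93, 6.21, 6.60 and 5.99 untreated and 5.94, 4.45, 4.84 and 4.51 with chrysin, where replicate 1 lay at the level of untreated cells and the others below it, and was called lower (-1.25 ± 0.32, adjusted p = 0.00329). It had 10 to 136 reads per library. Psmb8 and Psmb9 were not called in any comparison, and Psmb9 was listed at 0 in untreated replicate 1.

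Shuttle factors, which carry ubiquitinated proteins to the cap, were taken in a list of 12 ubiquitin and shuttle genes. Of the 12, 4 were called higher and 3 lower with apigenin, beside 23.0% and 23.2% of all tested genes. With chrysin 6 were higher and 1 lower, beside 26.3% and 26.7%. Between the flavones 3 of the 12 were higher and 4 lower with apigenin, beside 24.7% and 26.1% of all tested genes. Ubqln1 had 10.27, 10.31, 10.32 and 10.29 untreated, 10.21, 10.14, 10.12 and 10.12 with apigenin and 11.12, 11.31, 11.24 and 11.41 with chrysin, a chrysin difference of 0.97 (adjusted p = 5.01e-08) and a flavone difference of -1.13. Rad23b rose by 0.64 with chrysin, differed between the flavones by -0.87 and was called lower with apigenin by -0.23 (adjusted p = 0.0292), the latter a call that ended without untreated replicate 1 or 2 or apigenin replicate 2 or 4 (adjusted p up to 0.111). Ubqln2 went the other way, with 0.35 for apigenin and -0.37 for chrysin, both called. Sqstm1, the autophagy receptor p62, rose by 1.66 with apigenin and 0.77 with chrysin (adjusted p = 1.73e-09 and 9.4e-06).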

How the data were processed

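RNA was sequenced from 12 samples, with groups taken from the sample titles and, per the labels' protocols, a stranded kit for mRNA. The submitters' processing notes name the build mm9 and the tools cutadapt, FastQC, STAR, HTSeq and DESeq2, whose versions and settings are not stated in the sources used here. The authors deposited log2 values, which the values themselves show to be log2 of a normalized count plus 1. They fell on whole reads (99.966% to 100.0% within 0.05 reads, under 500 reads), which gave depth.

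The filter on low values, a mean normalized count of 10 or more, left 12198 genes. These were fitted by limma 3.58.1 (R 4.3.3) with trend and robust estimation, 1 mean per group and all 12 samples. Tests were two-sided, p-values were adjusted by Benjamini-Hochberg over those genes, and calls were made below 0.05. All adjusted p are limma's. Differences are on the log2(normalized count + 1) scale, which understates changes of low genes. Gene models came from GENCODE vM1 and copies from minimap2.

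Genes given with every sample's value were, per part and comparison, the called members with the largest rise and fall, and a fixed set with the catalytic subunits. Of other lists up to 3 genes with the smallest p were named, and a few more were added after their values were seen. Members, lists and rule were chosen with earlier results of these data known.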

Additional observations from a re-analysis of the deposited data

Results flagged for a closer look

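Of 105 groups of 4 libraries examined over the members, 3 (2.86%) held a library far from the other 3, and chance gives about 1 in 20. Psmb5 in untreated replicate 2 was at 6.34, where the others lay between 6.18 and 6.19. Psmd1 in chrysin replicate 2 was at 11.24, against 11.17 to 11.18 in the others. Psmd13 in chrysin replicate 2 was at 9.85, against 9.69 to 9.71. These gaps came with narrow groups, and chrysin replicate 2 was the library with the fewest reads, 4298640. The part of depth in these values was not tested.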

How the results depend on the processing

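The scale of the libraries moved the counts of called members the most. With scaling to library totals, chosen after seeing the data, 13 members were called higher and 0 lower with apigenin against untreated, and 8 higher and 7 lower with apigenin against chrysin. Of all tested genes 31.5% and 18.0% were called higher and lower in the former comparison, and 36.4% and 17.2% in the latter. With quantile normalization 10 members were called higher with chrysin against untreated, and 7 higher and 6 lower with apigenin against chrysin, where Psmd2 turned to 0.30. Of all tested genes 25.5% were called higher in the former comparison, and 24.2% higher and 23.9% lower in the latter. The 4 lower calls of apigenin against untreated became 1 without a filter, 2 without trend and robust estimation, 0 at an adjusted p under 0.01, and 0 with apigenin replicates 1 and 3 alone. The share of all tested genes called lower was 23.2% at first, and 10.2%, 22.2%, 16.6% and 18.9% under these settings in turn. The 1 lower call of chrysin against untreated became 0 with centring on the median, with limma-voom, without a filter and at an adjusted p under 0.01. There the share called lower went from 26.7% to 25.5%, 25.3%, 12.3% and 19.3% in turn. At an adjusted p under 0.01, 1 member stayed higher with apigenin than with chrysin, beside 16.9% of all tested genes. With apigenin replicates 2 and 4 alone, Ubqln4 and Zfand2a turned to 0.31 and 0.55 for apigenin against chrysin. The causes were not tested. Without single libraries, 5 to 7 members were called higher and 1 to 4 lower with apigenin, 13 to 17 higher and 0 to 1 lower with chrysin, and 2 to 4 higher and 14 to 18 lower with apigenin against chrysin.

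No pairing by replicate number was seen in the values: over 12 pairs of libraries with the same number, correlations of deviations ran from -0.1 to 0.1 and 0 were over 0.1. Such correlations cannot show if samples with the same number were handled together. With a replicate block 2 members were called lower with apigenin and 0 lower with chrysin against untreated, beside 22.6% and 25.9% of all tested genes. Psma8 had 3 to 37 reads per library and Psmb5 had 19 to 186. Psmb8, Psmb9 and Psmb10 had 5 to 83, 0 to 63 and 10 to 136. The part of depth in the values of these genes was not tested.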
